A study of Mus musculus with 16 samples.

Results

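IL-1 and IL-18 are cytokines that start and amplify inflammation, and inflammasomes are the protein complexes that bring IL-1β and IL-18 into their active form. A set of 10 genes of this system was followed here: the ligand genes Il1a, Il1b and Il18, the antagonist gene Il1rn, the receptor genes Il1r1 and Il1r2, and the inflammasome and pyroptosis genes Nlrp3, Pycard, Casp1 and Gsdmd. They were chosen by name for their place in the pathway, not by a measured level, though with earlier results of these data known. They make up 10 of the 22298 genes counted. Each of the 10 was present under its Ensembl identifier in all 16 tumors and passed the minimum of 10 counts over all tumors.

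In macrophages and other myeloid cells, danger and microbial signals first induce the precursor of IL-1β through NF-κB. A sensor such as NLRP3 then assembles with the adaptor ASC and activates caspase-1, which cuts the precursors of IL-1β and IL-18 and also cuts gasdermin D, whose pores release the cytokines and can kill the cell. IL-33 belongs to the same cytokine family and signals through its own receptor and MyD88, the adaptor that the receptors for IL-1 and IL-18 also use. Transcript levels do not show whether a precursor was cut or a cytokine released.

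The tumors grew in wild-type 615-line mice, in which MFC cells, a forestomach carcinoma line of the mouse, are syngeneic. The mice were 6 weeks old, female or male and matched for sex, and were given 500000 MFC cells into the peritoneal cavity. The vehicle group received PBS and the IL-33 treatment group 20 μg/kg of IL-33, both into the peritoneal cavity on alternate days. Polyadenylated RNA was sequenced by a company from 8 tumors of each group, to ask how IL-33 treatment alters transcription in the tumor. The methods give 4 or 5 mice per group for this tumor model, fewer than the 8 tumors, although a larger group is described for survival, and do not say how many mice gave the sequenced tumors. Several tumors may therefore share a mouse, and the p-values below measure the spread between tumors, which may be in part technical.

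The values are reads counted per gene by the submitters, given below as CPM, in which each count is scaled to the total of its tumor. The total was 14139268 to 24290794 counts for vehicle tumors and 16569613 to 24288893 for IL-33 tumors. No 2 tumors of a group were near-identical, with a chi-square per degree of freedom of at least 8.78 between vehicle tumors and 8.74 between IL-33 tumors. Counting error weighed most on Il1a, which had 56 counts in all from vehicle tumors and 90 from IL-33 tumors.

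A pair of tumors stood apart from the rest. IL-33 replicate 7 carried transcripts of the female reproductive tract, with 922.5 CPM of the oviduct gene Ovgp1 against at most 2.83 CPM in the other 15 tumors, and 304.9 CPM of the ovarian gene Inha against at most 0.515 CPM. It also had 37.1 CPM of the IL-33 receptor gene Il1rl1, where the other 15 had at least 394.8 CPM, and 92.5 CPM of the mesothelial gene Msln, where they had at least 375.03 CPM. The other 3 mesothelial markers listed went the other way, with 59.8 CPM of Upk3b, 17.8 CPM of Lrrn4 and 9.06 CPM of Upk1b, against at most 2.15, 1.84 and 1.63 CPM. Vehicle replicate 4 had 8543 CPM of the globin gene Hba-a1, against at most 601.4 CPM in the other 14 tumors, and was the highest of the 16 tumors for all 5 red blood cell markers. In that tumor genes with long transcripts were low and genes with short transcripts high. The median deviation of genes longer than 5000 bases minus that of genes shorter than 1000 bases was −2.82 on the log2 scale, against −1.09 in IL-33 replicate 3, −0.76 in vehicle replicate 7 and −0.33 to 0.39 in the other 13. Differences between the groups are therefore given with all 16 tumors and without IL-33 replicate 7, and for some genes, as an alternative chosen after the data had been seen, without both tumors.

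The labels name tumor tissue and the methods name a carcinoma line, and the epithelial markers were only partly present. Krt8 ranged from 180.8 to 975.3 CPM and Krt19 from 44.5 to 690.2 CPM in the 15 tumors other than IL-33 replicate 7. Epcam, Cdh1 and Krt18, which define most carcinoma cells, reached at most 2.40, 3.01 and 1.83 CPM there, against 98.8, 104.05 and 159.1 CPM in IL-33 replicate 7. Krt5 and Krt14, keratins of squamous epithelium, were at most 1.33 and 1.26 CPM in those 15 tumors. Msln, a gene of mesothelium and of some carcinomas, was at 375.03 to 1243 CPM.

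None of the 10 genes passed the test of IL-33 treatment against vehicle. With edgeR's quasi-likelihood test, 0 of the 10 had an adjusted p under 0.05, as did 0 of all 16817 genes tested (0.0%), and adjusted p ranged from 0.701 to 1.00 over the 10. At an unadjusted p under 0.05 the count was also 0 of 10, beside 1876 of the 16817 genes (11.2%) with edgeR. DESeq2 gave 0 of the 10 at either threshold, and 0 adjusted and 691 unadjusted over all genes. Without IL-33 replicate 7, edgeR gave 0 of 10 again at both thresholds, beside 0 adjusted (0.0%) and 651 unadjusted (4.12%) of 15803 genes. The median log2 fold change of the 10, IL-33 treatment group over vehicle group, was 0.20 with all tumors, where 8 lay above 0 and 2 below, and the median of all genes tested was 0.06. Without IL-33 replicate 7 these medians were 0.20 and −0.01, with 7 above 0 and 3 below. Because whole tumors were sequenced, fewer cells of a type and less RNA per cell cannot be told apart in any of these values.

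**Figure D1:**
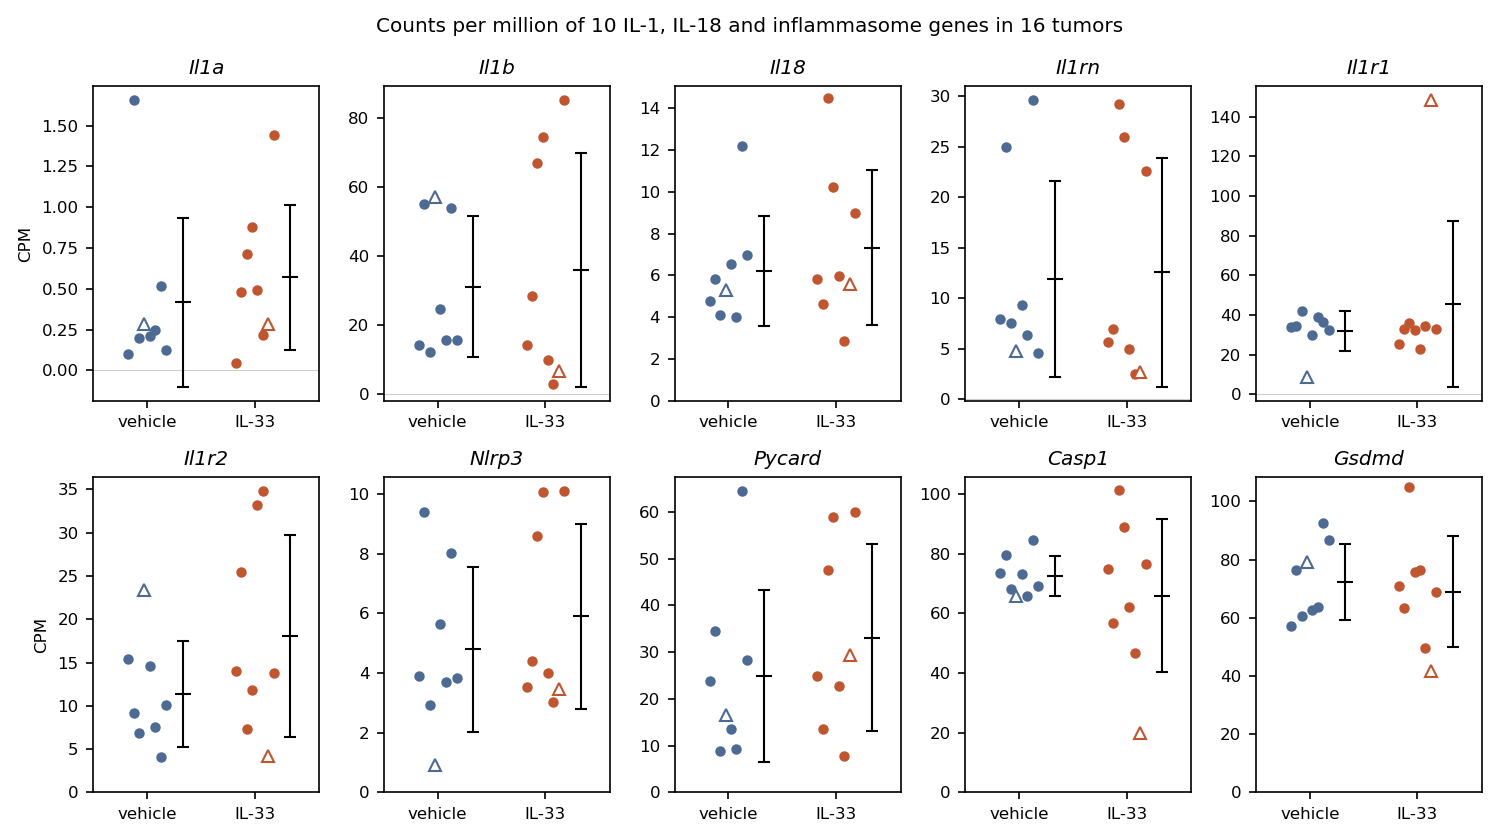
Level of each of the 10 genes in CPM on linear axes, 1 point per tumor, with the mean and SD of each group (n = 8) beside the points and with vehicle replicate 4 and IL-33 replicate 7 as open triangles. The groups overlap for every gene, Il1b spans 2.76 to 85.1 CPM within the IL-33 treatment group alone, and the highest Il1r1 value, 148.3 CPM, is IL-33 replicate 7.

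Among the ligands, IL-1α is held in many cells as an active precursor that is released on damage. Its gene, Il1a (ENSMUSG00000027399, chromosome 2, 129299610 to 129309972, minus strand, GRCm38), had the fewest counts of the 10, down to 1 count in a tumor. Its level was 0.0988 to 1.66 CPM over the vehicle group (median 0.229) and 0.0454 to 1.44 CPM over the IL-33 treatment group (median 0.488). Vehicle replicate 2 and IL-33 replicate 8 were the high tumors, replicate 1 was the lowest of each group, and the groups overlapped. The means were 0.416 ± 0.517 and 0.569 ± 0.442 CPM (SD, n = 8 per group). The fitted difference, a log2 fold change of 0.38 (standard error, written SE, of 0.67; unadjusted p = 0.586 and adjusted p = 0.901 with edgeR) was smaller than the spread, with 5 of 8 IL-33 tumors above the vehicle mean. It was 1.10 without vehicle replicate 2 (unadjusted p = 0.105 and adjusted p = 0.555 with edgeR) and 0.03 without IL-33 replicate 8.

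IL-1β, the main secreted IL-1 of activated macrophages, is encoded by Il1b (ENSMUSG00000027398, chromosome 2, 129364570 to 129371139, minus strand). It varied more between tumors than between groups, from 12.2 to 57.0 CPM over the vehicle group (median 20.1) and from 2.76 to 85.1 CPM over the IL-33 treatment group (median 21.2). In CPM the IL-33 tumors lay on both sides of the vehicle tumors. Replicates 3, 4 and 8, at 67.05, 74.4 and 85.1 CPM, were above every vehicle tumor. Replicates 5, 6 and 7, at 9.71, 2.76 and 6.67 CPM, were below every vehicle tumor, and replicates 1 and 2 were between, at 14.2 and 28.2 CPM. After scaling by edgeR's TMM factors, which correct the totals for composition, vehicle replicate 4 was the highest tumor. Its TMM-scaled log2 CPM was 6.48, against 6.03, 6.09 and 6.31 in IL-33 replicates 3, 4 and 8. The vehicle tumors were themselves uneven, with replicates 2, 4 and 7 at 55.2, 57.0 and 53.9 CPM and the other 5 at 24.6 CPM or less. The highest of the 16 tumors had 30.9 times the level of the lowest. The group means were 31.0 ± 20.5 and 36.0 ± 33.9 CPM (SD, n = 8 per group), and the log2 fold change was 0.00 (SE 0.63, unadjusted p = 0.994 and adjusted p = 1.00 with edgeR). It was 0.18 without IL-33 replicate 7 and 0.55 without both tumors that stood apart, with unadjusted p = 0.773 and 0.372 from edgeR. The reads of Il1b and of Il1a cannot be told from those of antisense partners, since strand use is not stated. Il1bos shares 25 exonic bases with Il1b, and Gm14023 shares 222 with Il1a, and neither partner was analysed here.

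IL-18 is made as a precursor at rest in macrophages and epithelium and drives interferon-γ from T and NK cells. Il18 (ENSMUSG00000039217, chromosome 9, 50554827 to 50581840, plus strand) ranged from 4.01 to 12.2 CPM over the vehicle group (median 5.56) and from 2.87 to 14.5 CPM over the IL-33 treatment group (median 5.90). Vehicle replicate 7 and IL-33 replicate 3 were highest, replicate 6 was lowest in each group, and the groups overlapped in all but those extremes. The means of 6.22 ± 2.63 and 7.32 ± 3.71 CPM (SD, n = 8 per group) gave a log2 fold change of 0.13 (SE 0.31, unadjusted p = 0.684 and adjusted p = 0.934 with edgeR). It was 0.21 when IL-33 replicate 7 was left out and −0.10 without IL-33 replicate 3, and 3 of 8 IL-33 tumors exceeded the vehicle mean.

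The IL-1 receptor antagonist, which occupies the receptor without signaling, is encoded by Il1rn (ENSMUSG00000026981, chromosome 2, 24336853 to 24351494, plus strand). Its level was 4.57 to 29.6 CPM over the vehicle group (median 7.75) and 2.49 to 29.2 CPM over the IL-33 treatment group (median 6.29). The tumors fell into separate clusters that crossed the groups. Vehicle replicates 2 and 7 and IL-33 replicates 3, 4 and 8 had 22.6 to 29.6 CPM, and the other 11 tumors had 2.49 to 9.32 CPM, with a gap of 1.17 on the log2 scale between the clusters. The means were 11.9 ± 9.73 and 12.6 ± 11.3 CPM (SD, n = 8 per group). Between the groups the log2 fold change was 0.02 (SE 0.55, unadjusted p = 0.968 and adjusted p = 0.995 with edgeR), with 3 of 8 IL-33 tumors above the vehicle mean, and 0.19 without IL-33 replicate 7.

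The balance of agonist to antagonist was compared within each tumor as the log2 ratio of Il1b to Il1rn, with 0.5 CPM added to each. In CPM per kilobase of the main transcript, Il1b exceeded Il1rn in all 16 tumors. The log2 ratio lay between 0.66 and 3.46 over the vehicle group (median 1.18) and from 0.13 to 1.95 over the IL-33 treatment group (median 1.22). Vehicle replicate 4 was far above the others and IL-33 replicate 6 was lowest. The means were 1.39 ± 0.89 and 1.25 ± 0.58 (SD, n = 8 per group), and 3 of 8 IL-33 tumors exceeded the vehicle mean. The difference of −0.14 was within the spread in a two-sided exact permutation test (p = 0.748, adjusted p = 0.810 over 3 ratios), and leaving out IL-33 replicate 7 made it −0.13 and leaving out vehicle replicate 4 made it 0.15.

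Of the receptors, IL-1R1 transmits the signal. Il1r1 (ENSMUSG00000026072, chromosome 1, 40225080 to 40317257, plus strand) was even in most tumors, with 8.91 to 41.8 CPM over the vehicle group (median 34.1) and 22.7 to 148.3 CPM over the IL-33 treatment group (median 32.9). The extremes were the tumors that stood apart: vehicle replicate 4 at 8.91 CPM and IL-33 replicate 7 at 148.3 CPM, while the other 14 lay between 22.7 and 41.8 CPM. The means were 32.2 ± 10.1 and 45.7 ± 41.7 CPM (SD, n = 8 per group), and 31.0 ± 4.98 CPM for the 7 IL-33 tumors without replicate 7. The log2 fold change of 0.39 (SE 0.31, unadjusted p = 0.232 and adjusted p = 0.701 with edgeR) rested on that tumor. It was −0.05 without it (SE 0.18, unadjusted p = 0.787 with edgeR), −0.05 with DESeq2 on all tumors and −0.16 without both tumors. With all tumors 6 of 8 IL-33 tumors exceeded the vehicle mean, which vehicle replicate 4 lowered.

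IL-1R2 is a decoy that binds IL-1 and does not signal. Il1r2 (ENSMUSG00000026073, chromosome 1, 40074079 to 40125231, plus strand) had 4.12 to 23.4 CPM over the vehicle group (median 9.61) and 4.22 to 34.8 CPM over the IL-33 treatment group (median 13.9). IL-33 replicates 6, 5 and 2, at 34.8, 33.1 and 25.4 CPM, were above every vehicle tumor. After TMM scaling only IL-33 replicate 6 was, at a log2 CPM of 5.29 against 5.20 in vehicle replicate 4. IL-33 replicates 5 and 2 were then at 5.10 and 4.70. Replicate 7 was the lowest of each group, at 4.12 and 4.22 CPM, and vehicle replicate 4 was the highest of its group, so the tumors that stood apart lay at opposite ends. The means were 11.4 ± 6.15 and 18.1 ± 11.6 CPM (SD, n = 8 per group), with 6 of 8 IL-33 tumors above the vehicle mean.

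This was the largest fitted difference of the 10, a log2 fold change of 0.52 (SE 0.49, unadjusted p = 0.302 and adjusted p = 0.755 with edgeR). It was 0.68 without IL-33 replicate 7 (SE 0.45, unadjusted p = 0.149 and adjusted p = 0.964 with edgeR). Without both tumors, a choice made after the data had been seen, it was 1.12, with an unadjusted p of 0.0109 and an adjusted p of 1.00 from edgeR. It alone of the 10 genes passed the unadjusted threshold in that fit, beside 659 of all 15744 genes tested, and 0 genes passed the adjusted one with edgeR. On all tumors, limma voom with sample quality weights also put Il1r2 under 0.05 (log2 fold change 0.82, unadjusted p = 0.0204 and adjusted p = 0.767), beside 966 of 16817 genes. Over all alternatives the log2 fold change of Il1r2 stayed between 0.27 and 1.12, and its smallest adjusted p was 0.532.

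The log2 ratio of decoy to signaling receptor, Il1r2 to Il1r1, was −3.01 to 1.35 in the vehicle group (median −1.75) and −4.98 to 0.54 over the IL-33 treatment group (median −1.03). Vehicle replicate 4 was the highest tumor and IL-33 replicate 7 the lowest. The means were −1.51 ± 1.34 and −1.31 ± 1.72 (SD, n = 8 per group), and 6 of 8 IL-33 tumors exceeded the vehicle mean. The difference of 0.20 was within the spread (two-sided exact permutation test, p = 0.802, adjusted p = 0.810 over 3 ratios). It was 0.73 without IL-33 replicate 7 (exact permutation test, p = 0.252, adjusted p = 0.755). Both differences include vehicle replicate 4.

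NLRP3 is the inflammasome sensor of ion loss, crystals and membrane damage, and its transcript is itself induced in primed macrophages. Nlrp3 (ENSMUSG00000032691, chromosome 11, 59541568 to 59566956, plus strand) had 0.919 to 9.38 CPM over the vehicle group (median 3.87) and 3.03 to 10.1 CPM over the IL-33 treatment group (median 4.21). Vehicle replicate 4 was the lowest tumor, IL-33 replicates 4 and 8 were above every vehicle tumor, and the other 6 IL-33 tumors lay inside the vehicle range. The means of 4.79 ± 2.77 and 5.90 ± 3.10 CPM (SD, n = 8 per group) gave a log2 fold change of 0.26 (SE 0.37, unadjusted p = 0.489 and adjusted p = 0.862 with edgeR), and 0.37 without IL-33 replicate 7. The fold was 0.12 without IL-33 replicate 8, 0.13 without vehicle replicate 4 and 0.47 without vehicle replicate 2. Above the vehicle mean were 3 of 8 IL-33 tumors.

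Pycard encodes ASC, the adaptor that links the sensor to caspase-1 (ENSMUSG00000030793, chromosome 7, 127989708 to 127993867, minus strand). It ranged from 8.94 to 64.5 CPM over the vehicle group (median 20.2) and from 7.90 to 60.03 CPM over the IL-33 treatment group (median 27.2). The ranges nearly coincided, with vehicle replicate 7 and IL-33 replicates 8 and 4 the highest tumors and IL-33 replicate 6 the lowest. The means were 24.9 ± 18.4 and 33.1 ± 19.99 CPM (SD, n = 8 per group). This gave a log2 fold change of 0.31 (SE 0.43, unadjusted p = 0.474 and adjusted p = 0.854 with edgeR), with 5 of 8 IL-33 tumors above the vehicle mean, and 0.38 without IL-33 replicate 7. Gm45205 on the opposite strand shares 485 exonic bases with Pycard, so their reads cannot be told apart, and it was not analysed here.

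Caspase-1 is the protease of the inflammasome. Casp1 (ENSMUSG00000025888, chromosome 9, 5298517 to 5307265, plus strand) was the steadiest of the 10 genes in CPM across the vehicle group, at 65.8 to 84.6 CPM (median 71.1), and ranged from 19.8 to 101.4 CPM over the IL-33 treatment group (median 68.6). In CPM the IL-33 tumors were spread to both sides. Replicates 3 and 4 were above every vehicle tumor, and replicates 2, 5, 6 and 7 were below every one, with replicate 7 the lowest. After TMM scaling vehicle replicate 4 was the highest tumor, at a log2 CPM of 6.69 against 6.63 and 6.34 in IL-33 replicates 3 and 4. The means were 72.5 ± 6.68 and 65.9 ± 25.5 CPM (SD, n = 8 per group), and 4 of 8 IL-33 tumors exceeded the vehicle mean. For Casp1 the log2 fold change was −0.23 (SE 0.24, unadjusted p = 0.365 and adjusted p = 0.797 with edgeR). It was −0.07 without IL-33 replicate 7 and 0.00 without both tumors.

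Gasdermin D forms the pores of pyroptosis once cut. Gsdmd (ENSMUSG00000022575, chromosome 15, 75862327 to 75867408, plus strand) had 57.2 to 92.5 CPM over the vehicle group (median 69.9) and 41.7 to 105.03 CPM over the IL-33 treatment group (median 69.9). In CPM IL-33 replicate 3 was the highest tumor, IL-33 replicates 6 and 7 were below every vehicle tumor, and the medians were level. After TMM scaling vehicle replicate 4 was the highest tumor, at a log2 CPM of 6.95 against 6.68 in IL-33 replicate 3. Only IL-33 replicate 7 was then below every vehicle tumor, since IL-33 replicate 6 (5.7993) was just above vehicle replicate 1 (5.7964). The means of 72.4 ± 13.1 and 69.0 ± 19.1 CPM (SD, n = 8 per group) gave a log2 fold change of −0.18 (SE 0.20, unadjusted p = 0.386 and adjusted p = 0.809 with edgeR). It was −0.08 without IL-33 replicate 7 and 0.06 without both tumors, and 3 of 8 IL-33 tumors exceeded the vehicle mean.

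**Figure D2:**
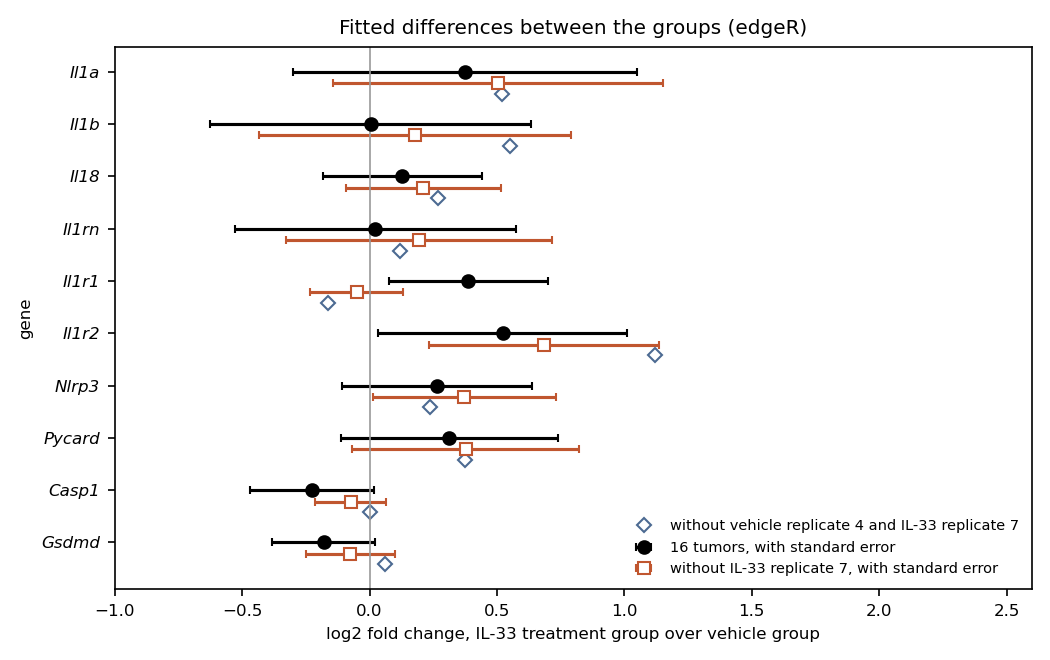
Log2 fold change of each gene, IL-33 treatment group over vehicle group, from edgeR with all 16 tumors (filled circles), with IL-33 replicate 7 left out (open squares), each with its standard error, and with both tumors that stood apart left out (open diamonds, no error drawn). Il1r1 moves from 0.39 to −0.05 without IL-33 replicate 7, and Il1r2 from 0.52 to 1.12 without both tumors.

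Per kilobase of the main transcript, the execution genes were the most abundant and Il1a the least. The median over the 16 tumors was 47.5 CPM per kilobase for Casp1, 39.03 for Gsdmd and 14.8 for Il1b. Casp1 was above Gsdmd in 12 of 16 tumors, Gsdmd above Il1b in 14 and Il1b above Il1r2 in 13. Il1r2 (median 9.02 CPM per kilobase), Il18 (6.77), Pycard (6.43) and Il1r1 (5.73) did not differ beyond their spread, since each was above the next in only 9 or 10 of 16 tumors, and Il18 and Pycard changed places when all annotated exons were used as the length. Il1r1 was above Il1rn (2.93 CPM per kilobase) in 10 tumors, while Il1rn was above Nlrp3 (0.983) and Nlrp3 above Il1a (0.144) in 16 of 16. With all annotated exons as the length, Casp1 was above Gsdmd in 15 of 16, Il1r1 above Il1rn in 16 and Il1rn above Nlrp3 in 12.

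The tumors that were high for Il1rn were high for much of the set. Vehicle replicates 2 and 7 and IL-33 replicates 3, 4 and 8 were also the 5 highest of 16 in CPM for Il1a, Nlrp3, Pycard and Casp1, and 4 of them were among the 5 highest for Il1b and for Il18. After scaling by edgeR's TMM factors, which correct the totals for composition, the overlap was again 5 of 5 for Nlrp3 and Pycard and 4 of 5 for Il1a, Casp1, Il1b and Il18. For Nlrp3 these 5 tumors had 8.00 to 10.1 CPM and the other 11 had 0.919 to 5.65 CPM, and for Pycard 34.5 to 64.5 CPM and 7.90 to 29.3 CPM. Gsdmd shared 3 of its 5 highest tumors in CPM with Il1rn, Il1r1 shared 2 and Il1r2 shared 0. For Il1r2 the 5 tumors had 4.12 to 13.8 CPM, inside the 4.22 to 34.8 CPM of the other 11 but for the lowest. These tumors were picked by the values themselves, so no test was made between them and the rest.

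**Figure D3:**
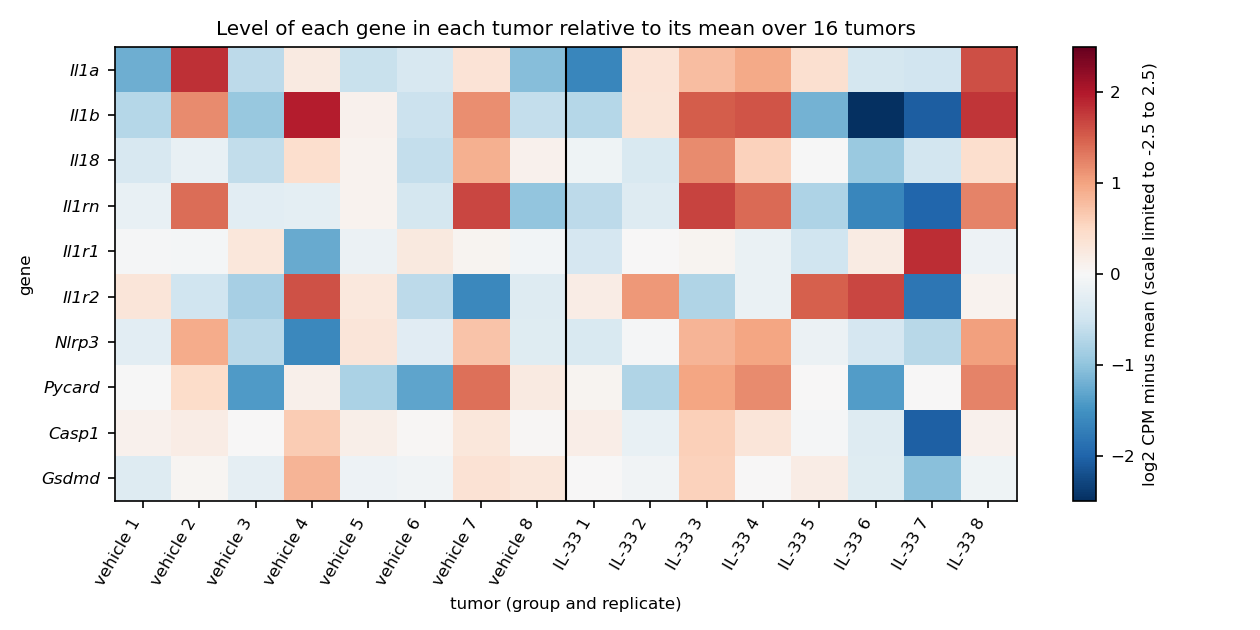
Heat map of the 10 genes (vertical axis) in the 16 tumors (horizontal axis), coloured by TMM-scaled log2 CPM minus the gene's mean over the 16 tumors and limited to ±2.5. Vehicle replicates 2 and 7 and IL-33 replicates 3, 4 and 8 are high in most of Il1a, Il1b, Il18, Il1rn, Nlrp3 and Pycard, and Il1r2 does not follow them.

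Pairs of the genes were compared across the 16 tumors by TMM-scaled log2 CPM, with permutation p-values adjusted over the 45 pairs. Because Il1rn split the tumors into clusters, its 9 pairs are given no value over all tumors. Of the other 36 pairs, 8 had an adjusted permutation p under 0.05 for both Pearson's r and Spearman's rho, and in all 8 both genes were high in the same tumors. Il18 and Pycard had the highest rho, with r = 0.84 (permutation p = 4e-05, adjusted p = 0.00075) and rho = 0.85 (permutation p = 8e-05, adjusted p = 0.0036). That relation was present within each group, at r = 0.80 in the vehicle group and 0.88 in the IL-33 treatment group, and r was 0.81 without the 2 tumors farthest from the median.

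Il1b followed Il18 at r = 0.78 (permutation p = 0.00032, adjusted p = 0.00333) and rho = 0.74 (permutation p = 0.00142, adjusted p = 0.0128), with r = 0.71 and 0.85 within the groups and 0.72 without the 2 farthest tumors. Il1b and Casp1 had r = 0.64 (permutation p = 0.00247, adjusted p = 0.0111) and rho = 0.77 (permutation p = 0.00058, adjusted p = 0.0087), with r = 0.64 without the 2 farthest tumors. Casp1 and Gsdmd, protease and substrate, had r = 0.84 (permutation p = 5e-05, adjusted p = 0.00075) and rho = 0.65 (permutation p = 0.00766, adjusted p = 0.0287). Without the 2 farthest tumors, vehicle replicate 4 and IL-33 replicate 7, r was 0.65 and rho 0.48. The sensor and the cytokine it serves, Nlrp3 and Il1b, did not pass, with r = 0.48 (permutation p = 0.0609, adjusted p = 0.110) and rho = 0.57 (permutation p = 0.0243, adjusted p = 0.0521). Vehicle replicate 4, where Il1b was high and Nlrp3 lowest, lay off that line, and r was 0.89 without it and IL-33 replicate 7.

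The signaling receptor had 3 pairs that passed for r, all with coefficients below 0, and none that passed for rho. Il1r1 and Casp1 had r = −0.85 (permutation p = 0.00227, adjusted p = 0.0111) but rho = −0.46 (permutation p = 0.0742, adjusted p = 0.128), and r was −0.13 without the 2 farthest tumors, so the relation rested on vehicle replicate 4 and IL-33 replicate 7. Il1r1 and Il1r2 had r = −0.65 (permutation p = 0.00301, adjusted p = 0.0123) and rho = −0.58 (permutation p = 0.0209, adjusted p = 0.0521), and r was −0.37 without those tumors.

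Marker genes of the cell types that express this system were read in the same tumors. All 12 monocyte and macrophage markers had counts, with Lyz2 the most abundant, and their summed level was 1312 to 3319 CPM over the vehicle group (median 1672) and 793.8 to 3193 CPM over the IL-33 treatment group (median 1895). Vehicle replicate 7 and IL-33 replicate 3 were the highest tumors and IL-33 replicate 6 the lowest, as for Il18. Those highest tumors were also the next after vehicle replicate 4 in the loss of long transcripts (−0.76 and −1.09), and the part of that in their levels was not tested. Il18 followed the mean log2 level of these markers at r = 0.92 (permutation p = 1e-05, the smallest that 100000 draws can give, adjusted p = 0.0003 over 30 relations) and rho = 0.85 (permutation p = 8e-05, adjusted p = 0.0024). Pycard followed it at r = 0.81 (permutation p = 6e-05, adjusted p = 0.0009) and rho = 0.74 (permutation p = 0.0016, adjusted p = 0.024). Without the 2 farthest tumors r was 0.87 for Il18 and 0.79 for Pycard. Within the groups r was 0.86 and 0.95 for Il18 and 0.71 and 0.91 for Pycard. No other relation of the 30 with the macrophage, neutrophil or epithelial markers passed for both r and rho.

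**Figure D4:**
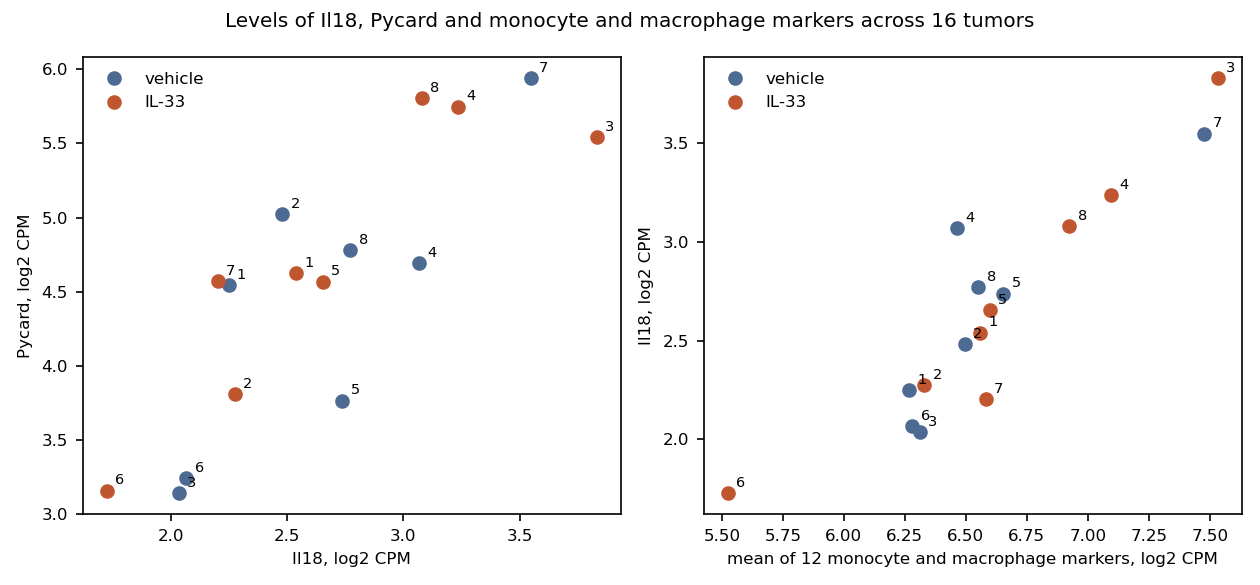
TMM-scaled log2 CPM of Il18 against Pycard, and of Il18 against the mean log2 CPM of 12 monocyte and macrophage markers, 1 point per tumor, coloured by group. Both rise together across the 16 tumors (r = 0.84 and 0.92), with tumors of both groups along most of the line.

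Neutrophil markers were compared with the decoy receptor in the same way. All 10 had counts, with S100a9 the most abundant, and their sum was 60.9 to 510.1 CPM over the vehicle group (median 114.9) and 75.3 to 229.7 CPM over the IL-33 treatment group (median 126.5). Vehicle replicate 4, the tumor low in long transcripts, was the highest in the sum and in 6 of the 10 markers, followed in the sum by IL-33 replicate 2. Il1r2 followed the mean log2 level of these markers at r = 0.68 (permutation p = 0.00266, adjusted p = 0.0199 over 30 relations) and rho = 0.68 (permutation p = 0.0054, adjusted p = 0.0540), so it passed for r only, and r was 0.56 without the 2 farthest tumors, 0.64 without both tumors that stood apart and 0.88 and 0.65 within the groups. The part that either cell type's share, or the loss of long transcripts, has in the level of Il18, Pycard or Il1r2 was not tested.

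T cell markers, 6 of 6 with counts and Cd8a the most abundant, summed to 4.504 to 58.9 CPM over the vehicle group (median 11.96) and 3.14 to 53.9 CPM over the IL-33 treatment group (median 10.7). Their 5 highest tumors were the same 5 as for Il1rn, at 19.2 to 58.9 CPM against 3.14 to 15.5 CPM in the other 11. The monocyte and macrophage markers shared 4 of their 5 highest tumors in CPM with Il1rn (3 after TMM scaling), at 1667 to 3319 CPM in those 5 and 793.8 to 2638 CPM in the other 11, and the neutrophil markers shared 1 (0 after TMM scaling). The part of these cells in the levels of Il1rn, Nlrp3 and Pycard was not tested. The 7 epithelial markers, led by Krt8, summed to 379.8 to 1546 CPM and 236.5 to 1366 CPM in the respective groups (medians 619.7 and 587.8), and none of their 5 highest tumors was among those 5.

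The remaining lists showed the tumors that stood apart. The 6 fibroblast markers, led by Col3a1, summed to 504.4 to 6799 CPM over the vehicle group (median 1375) and 622.2 to 14253 CPM over the IL-33 treatment group (median 1152), highest in IL-33 replicate 7. The 4 mesothelial markers, led by Msln, summed to 450.3 to 791.9 CPM and 179.1 to 1247 CPM (medians 616.5 and 696.6), lowest in IL-33 replicate 7, where Msln was lowest and the other 3 were highest. The 10 female reproductive tract markers, led by Ovgp1, were at 1611.7 CPM in IL-33 replicate 7 and no higher than 4.29 CPM in the other 15. The 5 red blood cell markers, led by Hba-a1, summed to 171.2 to 12804 CPM over the vehicle group (median 705.0) and 51.2 to 2844 CPM over the IL-33 treatment group (median 150.6), highest in vehicle replicate 4 and next in IL-33 replicate 7. All listed markers had a count in at least 1 tumor and 0 of them had an adjusted p under 0.05 with edgeR. The female reproductive tract markers were all highest in IL-33 replicate 7, so their test with that tumor is not given, and without it an unadjusted p under 0.05 was found for 0 of the 6 of them with enough counts. The red blood cell markers had one, with a lower level in the IL-33 treatment group, for 4 of 5 with all tumors and 5 of 5 without IL-33 replicate 7. For the epithelial markers it was 3 of 7 with all tumors, all higher, and 1 of 7 without IL-33 replicate 7, lower. That tumor was far the highest for Epcam, Cdh1 and Krt18, so the 3 of 7 is no measure of a difference between the groups. For the monocyte and macrophage markers it was 0 of 12 and 2 of 12, both higher. The other lists had 0 in either fit, against 11.2% and 4.12% of all genes. Il1r1 and Nlrp3, with main transcripts of 5819 and 4021 bases, were lowest in vehicle replicate 4, the tumor low in long transcripts (−2.82). The part of these cells, or of that loss, in the levels of Il1r1, Nlrp3, Casp1 and Il1r2 in the tumors that stood apart was not tested.

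The genes whose levels ran most like those of 6 of the set were found by Spearman's rho over the 16 tumors among 13109 genes, as a description with no test. For Il1b these were Il11 (rho = 0.909), Coprs (0.906) and Gdf15 (0.906), and for Il1rn, given no value because it split the tumors, the scavenger receptor gene Msr1, Cept1 and Chac2. For Il18 they were the leukocyte genes Fcer1g (0.953), Coro1a (0.950) and Lrrc25 (0.947), and for Nlrp3 Gm6377 (0.968), Tnfrsf14 (0.950) and the myeloid kinase gene Fgr (0.941). Casp1 ran most like Coa4 (0.929), Gpatch4 (0.924) and Psme2 (0.918). The values for Il1r1 were lower, at 0.826 for Tshz3, 0.815 for Olfml1 and 0.812 for Reck.

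Another 67 genes of the pathway were listed by role, of which 58 had enough counts to be tested. With edgeR, 0 had an adjusted p under 0.05, while 5 had an unadjusted p under 0.05 and a higher level in the IL-33 treatment group and 2 a lower one. That is 12.1% of the 58, against 11.2% of all genes. Among the 5, IL-33 replicate 7 held 16 of the 17 counts of Il36b and 45 of the 59 of Nlrp6, so neither measures a difference between the groups. Without IL-33 replicate 7 it was 3 of 57 (5.26%, against 4.12% of all genes), all higher, and with DESeq2 on all tumors 3 were higher and 1 lower (6.90% of the 58, beside 691 of 16817 genes), with 0 adjusted. The median log2 fold change of the 58 was 0.13, against 0.06 over all genes.

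Of the other ligands of the family, only Il33 was abundant, at 155.4 to 591.7 CPM over the vehicle group (median 393.3) and 115.8 to 957.9 CPM over the IL-33 treatment group (median 314.5). It overlapped widely between the groups, with IL-33 replicate 6 the highest tumor and IL-33 replicate 7 the lowest. Its log2 fold change was 0.08 (SE 0.41, edgeR adjusted p = 0.973), with 4 of 8 IL-33 tumors above the vehicle mean, and 0.23 without IL-33 replicate 7. Of the 6 ligands listed, 3 were tested, with a median log2 fold change of 0.08. For genes with a group at or under 3 counts in every tumor, the fold was also set at a bound, or the gene left out where no bound could be set. The median of the ligands was then −0.12. Il36b (listed as Il1f8), a ligand of epithelium, had an unadjusted p under 0.05, but all 16 of its counts in the IL-33 treatment group were in replicate 7 and the vehicle group had 1, so no fold is given.

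All 7 other receptors and soluble regulators were tested and 0 had an unadjusted p under 0.05 with edgeR, with a median log2 fold change of 0.26, and −0.12 without IL-33 replicate 7. The IL-33 receptor gene Il1rl1 was the most abundant per kilobase, at 489.0 to 1318 CPM over the vehicle group (median 618.3) and 37.1 to 905.4 CPM over the IL-33 treatment group (median 678.6). IL-33 replicate 7 was the lowest tumor and vehicle replicate 2 the highest. For Il1rl1 the log2 fold change was −0.33 (SE 0.42, edgeR adjusted p = 0.838), with 3 of 8 IL-33 tumors above the vehicle mean, and −0.15 without that tumor. Il18bp encodes the soluble inhibitor of IL-18, at 7.497 to 37.6 CPM over the vehicle group (median 11.98) and 4.92 to 41.7 CPM over the IL-33 treatment group (median 14.4). Vehicle replicate 7 and IL-33 replicate 4 were the highest tumors and the groups overlapped. The log2 ratio of Il18 to Il18bp was −2.04 to −0.46 over the vehicle group (median −1.16) and −1.97 to −0.69 over the IL-33 treatment group (median −1.24). The means of that ratio were −1.20 ± 0.52 and −1.26 ± 0.43 (SD, n = 8 per group), with 4 of 8 IL-33 tumors above the vehicle mean. The difference of −0.06 was within the spread (two-sided exact permutation test, p = 0.810, adjusted p = 0.810 over 3 ratios), and it was −0.05 without IL-33 replicate 7.

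The 11 genes of the MyD88 and IRAK relay, all tested, had 0 unadjusted p under 0.05 with edgeR and a median log2 fold change of 0.03, with 7 above 0 and 4 below. The median was 0.08 without IL-33 replicate 7, with 9 above 0 and 2 below. Myd88 was the most abundant per kilobase, at 24.6 to 95.01 CPM over the vehicle group (median 52.2) and 29.2 to 98.9 CPM over the IL-33 treatment group (median 69.6). The groups overlapped, with 5 of 8 IL-33 tumors above the vehicle mean, and its log2 fold change was 0.21 (SE 0.23, edgeR adjusted p = 0.801), and 0.22 without IL-33 replicate 7.

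Among 16 other inflammasome sensors and regulators, all tested, 13 had a log2 fold change above 0 and 3 below, with a median of 0.37, against 0.06 over all genes. When IL-33 replicate 7 was left out, 14 were above 0 and 2 below, with a median of 0.41, against −0.01 over all genes. With genes at or under 3 counts in a group set at their bound or left out likewise, the medians were 0.32 and 0.35. Those with an unadjusted p under 0.05 with edgeR were Naip5, Txnip and Nlrp6.

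Naip5, whose product senses bacterial flagellin, had 2.83 to 9.95 CPM over the vehicle group (median 6.64) and 6.33 to 24.4 CPM over the IL-33 treatment group (median 8.90). IL-33 replicate 7 was highest and vehicle replicate 4 lowest, and 3 of 8 IL-33 tumors were above every vehicle tumor. Its log2 fold change was 0.78 (SE 0.25, unadjusted p = 0.00625 and adjusted p = 0.418 with edgeR), with 7 of 8 IL-33 tumors above the vehicle mean. Without IL-33 replicate 7 it was 0.62 (unadjusted p = 0.0116 and adjusted p = 0.964 with edgeR). The Naip genes are close copies of each other, so reads could have been divided among them and the level of Naip5 alone is uncertain.

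Txnip, a regulator of thioredoxin that can bind NLRP3, was the most abundant of this list per kilobase. It had 27.8 to 237.0 CPM over the vehicle group (median 117.8) and 143.1 to 1411 CPM over the IL-33 treatment group (median 211.5). The highest tumor was IL-33 replicate 7 and the lowest vehicle replicate 4, and all 8 IL-33 tumors exceeded the vehicle mean. Txnip had a log2 fold change of 1.36 (SE 0.44, unadjusted p = 0.00670 and adjusted p = 0.418 with edgeR), and of 0.74 without IL-33 replicate 7 (unadjusted p = 0.0208 and adjusted p = 0.964 with edgeR). Nlrp6, a sensor of gut epithelium, had 45 of its 55 counts in the IL-33 treatment group in replicate 7 and 4 counts in the vehicle group, so no fold is given.

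Of 10 other gasdermin and membrane rupture genes, 5 were tested, with 0 unadjusted p under 0.05 with edgeR. The median log2 fold change was 0.03, or −0.09 with low genes at their bound or left out. Without IL-33 replicate 7 the median was −0.32, with 2 above 0 and 3 below, against 3 and 2 with all tumors. Ninj1, which ruptures the membrane after the pores form, was the most abundant per kilobase, at 49.8 to 172.4 CPM over the vehicle group (median 70.7) and 44.8 to 97.8 CPM over the IL-33 treatment group (median 67.4). Vehicle replicate 4 was the highest tumor and 2 of 8 IL-33 tumors exceeded the vehicle mean. Ninj1 had a log2 fold change of −0.47 (SE 0.31, edgeR adjusted p = 0.626), and −0.50 without IL-33 replicate 7. Both fits include vehicle replicate 4, and the fold of Ninj1 without that tumor is not given here.

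The response to IL-1 was read from 17 genes that IL-1 is known to induce, of which 16 were tested. Their median log2 fold change was 0.07, with 9 above 0 and 7 below, and 0.09 without IL-33 replicate 7, with 12 above 0 and 4 below. The chemokine gene Ccl2 was the most abundant per kilobase, at 110.7 to 259.5 CPM over the vehicle group (median 184.4) and 13.96 to 432.7 CPM over the IL-33 treatment group (median 171.9). In CPM the IL-33 tumors spread to both sides of the vehicle tumors, as for Il1b and Casp1, and 4 of 8 were above the vehicle mean. Ccl2 had a log2 fold change of −0.09 (SE 0.49, edgeR adjusted p = 0.974), and of 0.10 without IL-33 replicate 7.

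Nfkbiz, which encodes a nuclear partner of NF-κB, had 17.5 to 47.5 CPM over the vehicle group (median 33.9) and 27.3 to 67.9 CPM over the IL-33 treatment group (median 47.1). With 4 of 8 IL-33 tumors above every vehicle tumor and 7 above the vehicle mean, the fitted log2 fold change was 0.39 (SE 0.18, unadjusted p = 0.0471 and adjusted p = 0.439 with edgeR). Without IL-33 replicate 7 it was 0.50 (unadjusted p = 0.00321 and adjusted p = 0.964 with edgeR).

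Mmp3, a matrix protease gene, had 18.9 to 230.4 CPM over the vehicle group (median 162.2) and 40.2 to 124.7 CPM over the IL-33 treatment group (median 90.6). None of the 8 IL-33 tumors was above the vehicle mean, but the lowest of the 16 tumors was in the vehicle group. Mmp3 had a log2 fold change of −0.87 (SE 0.39, unadjusted p = 0.0373 and adjusted p = 0.4202 with edgeR) and −0.77 without IL-33 replicate 7 (unadjusted p = 0.0665 and adjusted p = 0.964 with edgeR). Saa3, an acute-phase gene, had 32.4 to 579.8 CPM over the vehicle group (median 57.0) and 49.0 to 80.9 CPM over the IL-33 treatment group (median 68.7). The high value was vehicle replicate 4. The log2 fold change of −1.42 (SE 0.62, unadjusted p = 0.0357 and adjusted p = 0.42 with edgeR) was −0.06 without that tumor, and 0 of 8 IL-33 tumors exceeded the vehicle mean.

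Since Il1b, Il1rn, Nlrp3, Pycard and Casp1 were high in nearly the same tumors, the 250 bases before the start of each are given from RefSeq (GRCm38.p6), 5′ to 3′ on the strand of the gene. Il1a and Il18 shared as many of those tumors as Casp1 and Il1b, respectively, and their windows are described below but not shown. The table of promoters held 13 windows for 9 of the 10 genes, and where a gene has several starts 1 window is shown. Capitals mark matches to the AP-1 motif TGANTCA, the PU.1 core GAGGAAG or the TATA box TATAAA, or to the NF-κB motif, searched on both strands. Of 32851 promoter windows of that length, 6.75% held the AP-1 motif, 10.6% the PU.1 core, 12.4% the TATA box and 3.899% the NF-κB motif. The windows lie at chr2:129371140-129371389 (Il1b, minus strand), chr2:24336610-24336859 (Il1rn, plus strand), chr11:59542436-59542685 (Nlrp3, plus strand), chr7:127993868-127994117 (Pycard, minus strand) and chr9:5298267-5298516 (Casp1, plus strand).
Il1b: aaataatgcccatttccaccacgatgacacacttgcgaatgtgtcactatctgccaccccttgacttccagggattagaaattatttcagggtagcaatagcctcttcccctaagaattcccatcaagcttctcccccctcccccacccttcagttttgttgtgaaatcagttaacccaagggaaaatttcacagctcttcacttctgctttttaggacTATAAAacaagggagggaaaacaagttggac
Il1rn: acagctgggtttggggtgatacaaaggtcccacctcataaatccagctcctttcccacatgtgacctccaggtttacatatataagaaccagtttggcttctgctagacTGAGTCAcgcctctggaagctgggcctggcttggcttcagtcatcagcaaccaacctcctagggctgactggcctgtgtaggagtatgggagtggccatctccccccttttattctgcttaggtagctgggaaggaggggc
Nlrp3: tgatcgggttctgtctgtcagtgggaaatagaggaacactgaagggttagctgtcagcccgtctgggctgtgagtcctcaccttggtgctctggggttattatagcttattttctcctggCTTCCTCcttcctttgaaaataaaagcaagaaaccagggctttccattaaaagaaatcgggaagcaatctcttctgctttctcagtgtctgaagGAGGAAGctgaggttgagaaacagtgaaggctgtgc
Pycard: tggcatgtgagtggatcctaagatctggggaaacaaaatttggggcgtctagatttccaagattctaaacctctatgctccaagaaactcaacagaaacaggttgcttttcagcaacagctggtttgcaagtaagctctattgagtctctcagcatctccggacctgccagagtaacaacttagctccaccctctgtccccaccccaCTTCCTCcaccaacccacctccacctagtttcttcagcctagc
Casp1: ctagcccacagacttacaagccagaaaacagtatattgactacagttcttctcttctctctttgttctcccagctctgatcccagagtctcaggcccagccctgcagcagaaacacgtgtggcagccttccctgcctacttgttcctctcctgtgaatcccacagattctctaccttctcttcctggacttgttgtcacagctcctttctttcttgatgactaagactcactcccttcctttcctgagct
Il1b had a TATA box at −31 from the start, Il1rn an AP-1 match at −141, Nlrp3 PU.1 matches at −36 and −130, the latter on the reverse strand, and Pycard a PU.1 match at −43 on the reverse strand, while the Casp1 window held no match. Among the windows not shown, that of Il1a held a PU.1 match at −41, a TATA box at −32 and an AP-1 match at −12. The NF-κB motif matched on the reverse strand, at −186 in another window of Nlrp3 and at −232 in a window of Il1r1. A TATA box matched at −175 on the reverse strand in that of Il18. The Nlrp3 window not shown ends at the first base of the gene as placed above and held no PU.1 match. The Nlrp3 window shown lies inside the gene as so placed. The other windows of Il1rn held no match. A match describes the letters only.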

How the data were processed

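RNA counts per gene in 16 tumors were analysed as the authors deposited them, as raw counts without normalization. The submitters' processing notes name HISAT2, featureCounts and mm10; the use of strand and the annotation release are not given in the sources used here. Symbols, coordinates and lengths came from the GENCODE M21 annotation of GRCm38, and 22255 of 22298 identifiers were named. The genes and lists were chosen with earlier results of these data known. The 16817 genes with at least 10 counts over all tumors were tested with edgeR 4.0.16 (R 4.3.3; TMM, glmQLFit, glmQLFTest, Benjamini-Hochberg adjustment over all genes tested), and standard errors are the log2 fold change over the square root of F. CPM used the total count. Ratios of CPM + 0.5 were compared by two-sided exact permutation tests, and correlations of log2 CPM (TMM factors, prior count 2) by 100000 permutations. Scripts were tested on simulated counts. Alternatives were DESeq2 1.42.0, limma 3.58.1 voom with sample quality weights, filterByExpr, no filter, upper-quartile factors, total counts, robust quasi-likelihood, permutation tests, pseudocounts of 0.1 and 1, a replicate block and each tumor left out in turn. Named beside the 10 genes were list genes with an unadjusted p under 0.05 with all tumors or without IL-33 replicate 7, the most abundant gene per kilobase of each list, the most abundant marker of each cell type, ratio genes, and for 6 genes the 3 others with the highest rho among genes of at least 1 CPM on average. The single marker genes used to describe vehicle replicate 4, IL-33 replicate 7 and the epithelium, beyond the most abundant of each list, were chosen after their values had been seen.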

Additional observations from a re-analysis of the deposited data

Results flagged for a closer look

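Of 26 groups of 8 values examined (10 genes and 3 ratios in each group), 5 held a tumor whose gap to the nearest other was large against the range of its group. Chance gives about 1 in 20 groups of normal and independent values, which CPM and ratios of the same genes need not be. Il1a was 1.66 CPM in vehicle replicate 2, against a group median of 0.229 CPM. Il1r1 was 8.91 CPM in vehicle replicate 4 (group median 34.1 CPM) and 148.3 CPM in IL-33 replicate 7 (group median 32.9 CPM). Vehicle replicate 4 also had the highest log2 ratio of Il1b to Il1rn, 3.46 against a group median of 1.18, and the highest log2 ratio of Il1r2 to Il1r1, 1.35 against a group median of −1.75. So 4 of the 5 values belonged to the pair of tumors that stood apart in other genes.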

How the results depend on the processing

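Il1a, Il1r2, Nlrp3 and Pycard kept a positive log2 fold change under all alternatives run (26 for Il1a, 27 for the others), and 0 of the 10 genes reached an adjusted p under 0.05 in any. The cause of the other differences was not tested. Il1b was −0.0295 with DESeq2, −0.00203 with upper-quartile factors, −0.0132 with filterByExpr (Il1a was not tested under that filter) and −0.29 in the permutation test, where Il1rn was −0.14. Il1r1 was −0.0467 with DESeq2 and −0.19 with limma voom, and Gsdmd 0.06002 with limma voom. Without vehicle replicate 4 and IL-33 replicate 7 (edgeR, chosen after the data had been seen), Il1r1 was −0.16, Casp1 0.00212 and Gsdmd 0.06005. DESeq2 on the 15 tumors other than IL-33 replicate 7, likewise chosen after the data had been seen, gave −0.0574 for Il1r1. The fitted estimate of Il36b, from 16 counts in IL-33 tumors, all in replicate 7, and 1 in vehicle tumors, and so no measure of a difference, was 2.90 with edgeR on all tumors and positive in the other fits that tested it, but −0.56 with DESeq2 and −0.32 with limma voom, and Saa3 was 0.00688 with limma voom.

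Leaving out single tumors moved the log2 fold change from 0.0315 to 1.10 for Il1a, −0.29 to 0.38 for Il1b, −0.10 to 0.31 for Il18, −0.29 to 0.34 for Il1rn and −0.0504 to 0.46 for Il1r1. The range was 0.27 to 0.96 for Il1r2, 0.12 to 0.47 for Nlrp3 and 0.148 to 0.64 for Pycard. For Casp1 it was −0.34 to −0.07 and for Gsdmd −0.29 to −0.04. The difference in log2 ratio ranged from −0.25 to 0.15 for Il1b to Il1rn, −0.0628 to 0.73 for Il1r2 to Il1r1 and −0.18 to 0.0477 for Il18 to Il18bp.

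Genes with an unadjusted p under 0.05 numbered 691 with DESeq2, 640 with filterByExpr, which tested fewer genes, 966 with limma voom and 456 with the permutation test. Leaving out single tumors gave 651 to 2163, the lowest without IL-33 replicate 7. The count was 659 on the 14 tumors and 678 with DESeq2 on the 15. Among the 10 genes 1, Il1r2, had such a p with limma voom and on the 14 tumors. Of the other pathway genes it was 4 with DESeq2 and 3 without IL-33 replicate 7. DESeq2 on the 15 tumors gave 1 gene an adjusted p under 0.05 (0.0126), the red blood cell gene Alas2, with 1639 counts in the vehicle group, 695 of them in vehicle replicate 4 (log2 fold change −3.45). With IL-33 replicate 7, which had 603 counts of it, kept in the fit, DESeq2 gave 0 genes. Alas2 is named because of its value.

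Whether same-numbered tumors pair was not tested. Of 8 pairs, 4 had deviations correlated above 0.1 (r from −0.35 to 0.41), and 3 of 16 tumors were closest to their own number. With the replicate number as a block, 318 genes had an unadjusted p under 0.05 and 0 an adjusted one, Il1b was −0.46 and Il1rn −0.23.

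At a depth of at least 14139268 counts per tumor, counts were few for Il1a and the rare list genes. The spread between 8 tumors gave a standard error of 0.63 for Il1b. Whether depth or spread limits a gene more was not tested.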
